A study of Mus musculus with 10 samples.

Results

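The transcripts of 10 enzymes that turn cholesterol into conjugated bile acids were followed in the liver RNA-seq data of humanized mice treated with MI-883, a ligand that activates the human constitutive androstane receptor (CAR) and antagonizes the human pregnane X receptor (PXR). The genes were taken by name from the known enzymes of the classical pathway, the alternative pathway and conjugation. They were not taken for their values, though earlier results of these data were known. All 10 were among the 16647 genes in the count table and among the 13219 genes tested, which were those whose counts over all 10 livers came to 60 or more. The data hold 5 control and 5 MI-883 livers, each from another male animal. All mice carried the PXR-CAR-CYP3A4/3A7 humanization, in which human genes stand in for the mouse receptors and mouse Cyp3a enzymes, so both groups share the altered receptors and no wild-type liver was compared. The mice were 10 to 15 weeks old at the start, ate a high-fat diet (HFD) for 8 weeks and stayed on it during 4 weeks of dosing by oral gavage 3 times per week. The MI-883 group received 5 mg/kg of the compound in 5% DMSO, 5% PEG300 and 90% corn oil, and the control group received that vehicle alone. Dose, time and diet were single, so the data contain no dose or time series.

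Bile acids are made from cholesterol in hepatocytes and carry cholesterol out of the body with bile. The classical pathway starts with 7α-hydroxylation by Cyp7a1, its rate-limiting step, and Cyp8b1 adds the 12α-hydroxyl group that makes cholic acid rather than a dihydroxy bile acid. The alternative pathway starts on the side chain with the mitochondrial sterol 27-hydroxylase Cyp27a1, and the oxysterol 7α-hydroxylase Cyp7b1 follows, while Cyp39a1 7α-hydroxylates 24-hydroxycholesterol. Hsd3b7 and Akr1d1 modify the steroid ring, Amacr inverts the side-chain methyl group before peroxisomal shortening, Slc27a5 couples bile acids to coenzyme A, and Baat joins them to taurine or glycine. Bile acids returning from the intestine repress Cyp7a1 and Cyp8b1 through the receptor FXR (Nr1h4) and its target SHP (Nr0b2) in the liver and through intestinal Fgf15 acting on Fgfr4 with its co-receptor Klb.

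The promoter of Cyp8b1 is shown because Hnf4a and Nr5a2, nuclear receptors known to drive this gene, were themselves measured. The sequence is the 250 bases before the RefSeq start site (GRCm38.p6, chr9:121916306-121916555, minus strand), written 5′ to 3′, with motif matches in capitals.

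Cyp8b1: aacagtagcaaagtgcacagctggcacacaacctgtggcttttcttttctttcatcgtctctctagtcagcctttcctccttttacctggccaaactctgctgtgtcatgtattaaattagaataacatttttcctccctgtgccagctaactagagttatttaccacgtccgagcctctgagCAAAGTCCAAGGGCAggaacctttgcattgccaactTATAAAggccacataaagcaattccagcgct

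The capitals mark the HNF4-type motif CAAAGTCCA at bases -67 to -59, the NR5A2-type motif CAAGGNCA, matched as CAAGGGCA at -60 to -53 and so overlapping the first, and TATAAA at -31 to -26, counted from the start site. Both strands of the 300 bases from 250 before to 50 after the start were searched. Of 32851 RefSeq promoters of this length, 0.475% held the first motif, 6.71% the second and 13.6% the third. Promoters were at hand for 4 members (Cyp8b1, Cyp27a1, Akr1d1 and Hsd3b7), and each motif was matched in 1 of them, Cyp8b1. A match describes these letters and not a bound site.

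The livers gave 24014461–36221514 counts (control) and 23513665–28349963 counts (MI-883) per library, and the members had between 359 and 44634 counts in a liver. Cyp2b10, the classical CAR target, was at 24.4–44.3 CPM (counts relative to the library total, scaled by edgeR's trimmed-mean factors, TMM) in control livers and at 634–1375 CPM after MI-883 (log2 fold change 4.80, edgeR adjusted p = 3.63e-07).

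None of the 10 enzyme genes passed the test. In edgeR's quasi-likelihood test with Benjamini-Hochberg adjustment over all tested genes, 0 of 10 had an adjusted p under 0.05, where 1.03% of all tested genes did (0.764% higher and 0.265% lower in MI-883 livers). DESeq2 called 3.5% of all genes and also 0 of the 10. At an unadjusted p under 0.05, edgeR and DESeq2 each gave 1 member, Baat, and 15.6% of all tested genes met this limit in edgeR. In no member were the groups without overlap, a separation that 3.98% of all tested genes showed. Of the log2 fold changes, 5 were above and 5 below 0, and their median of 0.0044 lay beside 0.0045 for all tested genes. The 95% confidence interval stayed within a 2-fold change in either direction for 9 of 10 members and within 1.5-fold for 7 of 10, so that larger changes were outside the interval for most of the enzymes. Cyp7a1 was the exception to the 2-fold limit.

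**Figure D1:**
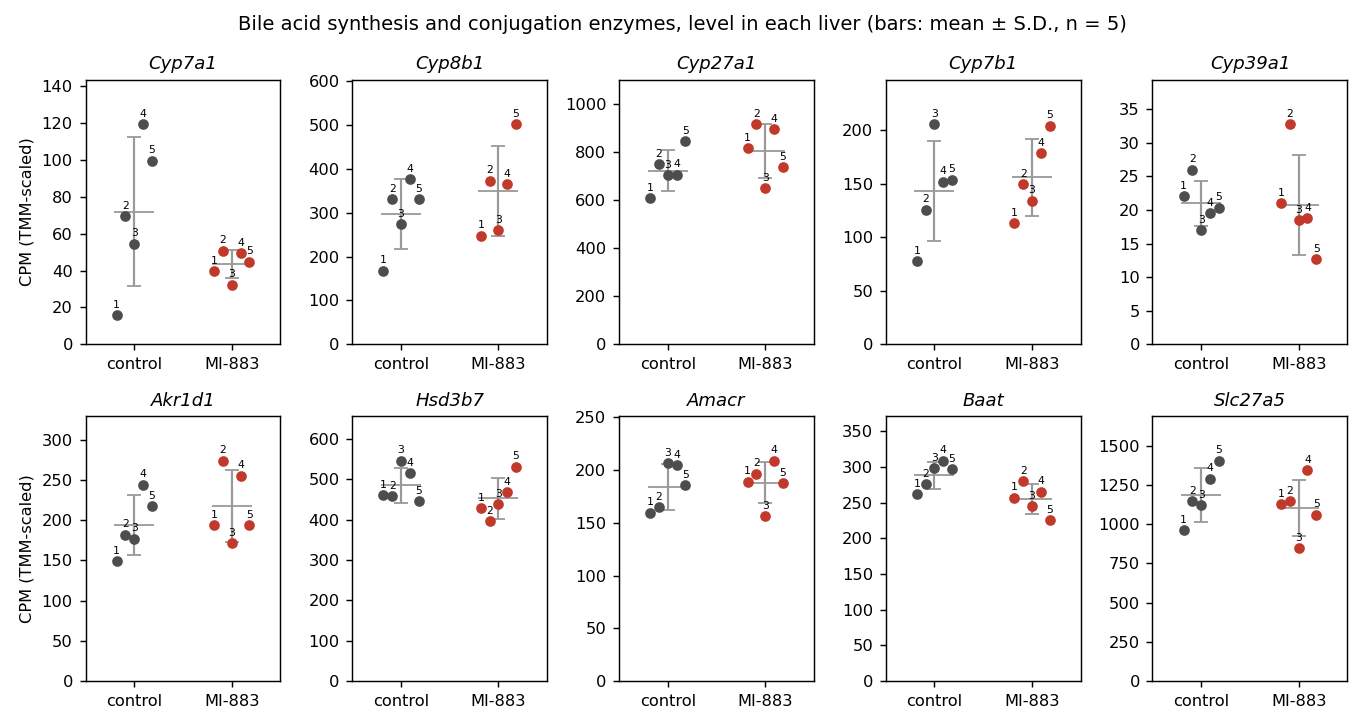
CPM (TMM-scaled, linear axes from 0) of each enzyme gene in 5 control (grey) and 5 MI-883 (red) livers, numbered by replicate, with bars for the mean ± SD. The groups overlap in all 10 panels; Cyp7a1 runs from 15.7 to 119.7 CPM in control livers and from 32.4 to 50.9 CPM in MI-883 livers.

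Cyp7a1 (Entrez gene 13122; GRCm38 chr4:6265612-6275632, minus strand, 6 exons) had the lowest estimate of the 10. Its level was 15.7, 69.7, 54.7, 119.7 and 99.7 CPM in control livers 1 to 5, and 39.5, 50.9, 32.4, 49.6 and 44.9 CPM in MI-883 livers 1 to 5. The MI-883 livers all lay below the control median of 69.7 CPM and close to each other, whereas the control livers were spread widely around them, with control liver 1 below and the other 4 above every MI-883 liver. The highest control liver was 7.64 times the lowest, and the highest MI-883 liver 1.57 times the lowest. The SD of log2 CPM was 1.15 in the control and 0.267 in the MI-883 group, a difference in spread that was not tested.

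The mean of Cyp7a1 was 71.9 ± 40.4 CPM in the controls and 43.5 ± 7.62 CPM after MI-883 (SD, n = 5 each). The log2 fold change was -0.73 (SE 0.373, 95% interval -1.53 to 0.081), with an edgeR adjusted p of 0.366 and a DESeq2 adjusted p of 0.447. The unadjusted edgeR p was 0.0740. A two-sided exact permutation test gave p = 0.429, where 5 against 5 livers can give no p under 0.00794. That test compares the group means of log2 CPM, a measure other than the edgeR log2 fold change. The difference was thus within the spread between livers, and the interval covers MI-883 levels from 0.346 to 1.06 of the control level.

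The call for Cyp7a1 depended on control liver 1. Without it, the log2 fold change of Cyp7a1 was -0.98 (SE 0.201, 95% interval -1.42 to -0.55), the MI-883 level was 0.505 of the control level, and the edgeR adjusted p was 0.0330. This was the sole one of 10 fits leaving out a liver in which Cyp7a1 passed, and across these fits the adjusted p ran from 0.0330 to 0.657 and the log2 fold change from -0.98 to -0.46. DESeq2 without control liver 1 gave an adjusted p of 0.000197, and the exact permutation test of 5 against 4 livers gave p = 0.0159. The other control livers all lay above every MI-883 liver, so this permutation p is the lowest possible one and was fixed by the removal. Control liver 1 was singled out because its Cyp7a1 value stands on the far side of the MI-883 livers, and nothing in its label marks it as different, so the value without it is not an independent test of Cyp7a1. With all livers and 1 surrogate variable (a pattern of variation estimated from the data) in the fit, the log2 fold change was -0.38 (edgeR adjusted p = 0.614). Control liver 1 (-0.34) and MI-883 livers 1 (-0.46) and 3 (-0.45) had the most negative values of that variable.

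Control liver 1 was also at the edge of the control group in other genes, though not across the transcriptome, being the lowest control liver in 20.2% and the highest in 21.8% of all tested genes. It was the lowest control liver in 8 of 10 enzyme genes, Hsd3b7 and Cyp39a1 being the 2 others. It was also lowest in 4 of 6 hepatocyte markers and 8 of 17 clock genes and highest in none of them. It was highest in 4 of 5 cholangiocyte and 4 of 6 Kupffer cell markers and lowest in none. The zonal markers were mixed, with control liver 1 lowest in 4 and highest in 2 of 7 periportal markers and lowest in 3 and highest in 2 of 7 pericentral markers. Tat, a glucocorticoid-responsive hepatocyte gene, was at 302.2 CPM there and at 805–1208 CPM in the other control livers, and Pck1, the gluconeogenic enzyme, at 1420 CPM against 2844–3986 CPM. Spp1, a biliary marker, was at 108.3 CPM against 20.3–65.8 CPM, and the macrophage receptor Marco at 17.0 CPM against 1.2–3.3 CPM. The part of these differences in the low Cyp7a1 value was not tested, and in bulk tissue fewer cells of a type and less RNA per cell cannot be told apart.

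Cyp8b1 (gene 13124, 1 exon, chr9:121914356-121916305, minus strand) showed the opposite sign to Cyp7a1. It was at 168.1, 331.6, 274.8, 376.1 and 330.7 CPM in control livers 1 to 5 and at 247.8, 373.3, 260.0, 366.0 and 502.9 CPM in MI-883 livers 1 to 5. The groups overlapped through most of their range, with MI-883 liver 5 above and control liver 1 below all others. The means were 296 ± 80.1 and 350 ± 103 CPM (SD, n = 5 each), with a log2 fold change of 0.24 (SE 0.220, 95% interval -0.23 to 0.72, edgeR adjusted p = 0.624). Without control liver 1 the log2 fold change was 0.093 (edgeR adjusted p = 0.832).

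The ring-modifying enzymes of the classical pathway varied less. Akr1d1, the 5β-reductase that gives bile acids their bent ring system (gene 208665, chr6:37529978-37574921, plus strand), was at 148.8, 182.1, 177.2, 244.6 and 217.9 CPM in control livers and at 193.9, 274.4, 171.4, 255.8 and 194.3 CPM in MI-883 livers. Its log2 fold change was 0.17 (SE 0.151, edgeR adjusted p = 0.621), and the highest livers of both groups were close to each other. Hsd3b7, the 3β-hydroxy-C27-steroid dehydrogenase (gene 101502, chr7:127800609-127803802, plus strand), was at 445–546 CPM in the controls and 397–531 CPM after MI-883 (log2 fold change -0.10, SE 0.0929, edgeR adjusted p = 0.630). Its value is uncertain, since 99.2% of its exon bases are shared with the antisense gene 9430064I24Rik or the same-strand gene Gm49388 in GENCODE, and the strand setting of the counting is not given in the sources used here. The exons of the other 9 members overlapped no other annotated gene.

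In the alternative pathway, Cyp27a1 (gene 104086, chr1:74713148-74737897, plus strand) was at 609.1, 751.0, 703.6, 707.1 and 845.9 CPM in control livers 1 to 5 and at 818.6, 919.0, 649.9, 898.0 and 737.6 CPM in MI-883 livers 1 to 5. Although 4 of 5 MI-883 livers were above the control median, control liver 5 was higher than 2 of these 4. The means of 723 ± 85.9 and 805 ± 112 CPM (SD, n = 5 each) gave a log2 fold change of 0.15 (SE 0.113, 95% interval -0.090 to 0.40, edgeR adjusted p = 0.540).

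Cyp7b1 (gene 13123, chr3:18071944-18243890, minus strand) was at 77.6, 126.0, 206.2, 152.2 and 154.1 CPM in control livers and at 113.4, 149.5, 134.4, 178.7 and 204.4 CPM in MI-883 livers. Both groups covered much the same range, and the log2 fold change was 0.13 (SE 0.218, 95% interval -0.35 to 0.60, edgeR adjusted p = 0.814). The sign of the Cyp7b1 estimate turned without control liver 1 (-0.031). Cyp39a1 (gene 56050, chr17:43667372-43751431, plus strand) was at 17.0–26.0 CPM in the controls and 12.7–32.8 CPM after MI-883. Its log2 fold change was -0.020 (SE 0.198, edgeR adjusted p = 0.976), with MI-883 liver 2 the highest and MI-883 liver 5 the lowest of all 10, and a sign that depended on the scaling (0.010 with total counts).

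Among the enzymes of side-chain shortening and conjugation, Baat came nearest to a difference. Baat, the amino acid N-acyltransferase that makes taurine and glycine conjugates (gene 12012, chr4:49489416-49507915, minus strand), was at 261.9, 275.9, 297.9, 309.0 and 296.8 CPM in control livers 1 to 5. In MI-883 livers 1 to 5 it was at 257.1, 280.3, 245.3, 265.5 and 225.4 CPM. All 5 MI-883 livers were below the control median of 296.8 CPM, but MI-883 livers 2 and 4 were above the lowest control liver. The means were 288 ± 19.0 and 255 ± 20.8 CPM (SD, n = 5 each), which is 0.884 of the control level (log2 fold change -0.18, SE 0.0770, 95% interval -0.35 to -0.012). The unadjusted p was 0.0373 and the adjusted p 0.285 in edgeR, DESeq2 gave an adjusted p of 0.208, and the exact permutation test gave p = 0.0397. Over the 10 fits leaving out a liver the log2 fold change of Baat stayed between -0.21 and -0.14, and the edgeR adjusted p between 0.213 and 0.509, so that it passed in none of them.

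Slc27a5, the bile acid-CoA ligase (gene 26459, chr7:12988346-12998192, minus strand), was at 962.6, 1150.2, 1121.1, 1292.4 and 1407.8 CPM in control livers and at 1128.9, 1148.0, 848.9, 1346.6 and 1062.3 CPM in MI-883 livers. Its log2 fold change was -0.10 (SE 0.129, edgeR adjusted p = 0.740), with 1 MI-883 liver above the control median. Amacr, the racemase (gene 17117, chr15:10981756-10996624, plus strand), was among the least variable members, at 160–206 CPM in the controls and 157–209 CPM after MI-883. Its log2 fold change was 0.029 (SE 0.0965, 95% interval -0.18 to 0.24, edgeR adjusted p = 0.913), and its sign turned without control liver 1 (-0.019).

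**Figure D2:**
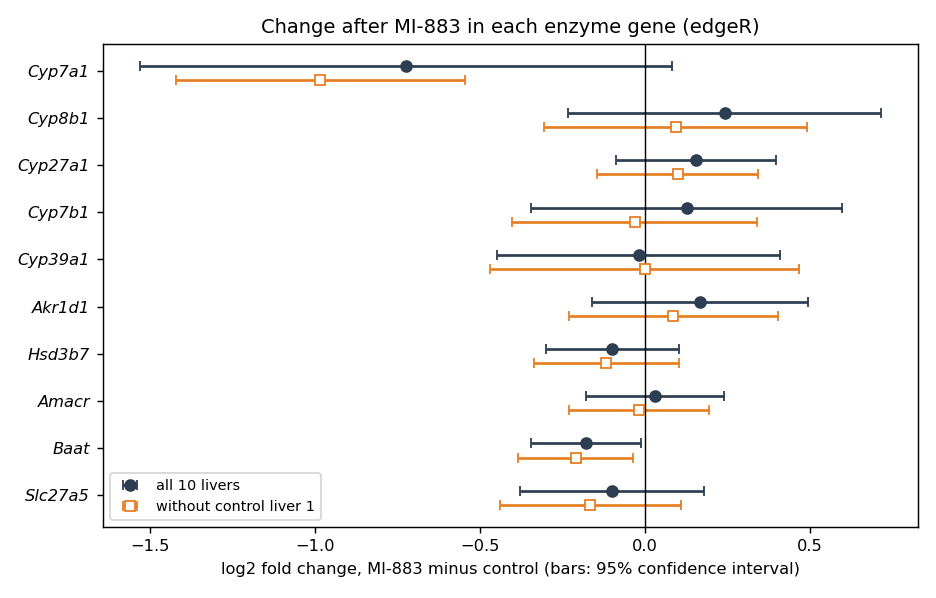
Log2 fold change (MI-883 minus control, edgeR) of each enzyme gene with its 95% confidence interval, for all 10 livers (filled circles) and without control liver 1 (open squares). With all livers the interval of Baat alone lies off 0 (-0.35 to -0.012), and without control liver 1 that of Cyp7a1 does too (-1.42 to -0.55).

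Ratios of counts within a liver compare 1 enzyme with another free of the scaling between libraries. The question was whether Cyp7a1 moved relative to the other hydroxylases. The count ratio of Cyp8b1 to Cyp7a1 was 10.7, 4.76, 5.02, 3.14 and 3.32 in control livers 1 to 5 and 6.26, 7.33, 8.02, 7.38 and 11.2 in MI-883 livers 1 to 5. All 5 MI-883 livers and control liver 1 were above the other 4 control livers. The log2 difference was 0.70 (SE 0.346, exact permutation p = 0.0873, 0.317 after adjustment over the 4 ratios), which did not pass.

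The ratio of Cyp27a1 to Cyp7a1 was 38.8 in control liver 1 and 5.91–12.9 in the other control livers, against 16.4–20.7 in MI-883 livers. Its log2 difference was 0.61 (SE 0.462, exact permutation p = 0.246, adjusted 0.328), and the MI-883 values of this ratio fell in the gap between control liver 1 and the other control livers. The ratio of Cyp7b1 to Cyp7a1 was 1.27–4.95 in control and 2.87–4.55 in MI-883 livers (log2 difference 0.62, SE 0.404, exact permutation p = 0.159, adjusted 0.317). These 3 ratios share Cyp7a1 and are not separate evidence. Without control liver 1 the log2 differences were 0.99 for Cyp8b1, 1.03 for Cyp27a1 and 0.90 for Cyp7b1, with unadjusted exact permutation p = 0.0159, 0.0159 and 0.0635 in that order. For Cyp8b1 and Cyp27a1 the other control livers all lay below every MI-883 liver, so this removal left no overlap. The p of 0.0159 is then the lowest that the test can give with these numbers of livers, and was fixed by the removal.

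For the conjugation steps, the ratio of Baat to Slc27a5 was 0.211–0.272 in control and 0.197–0.289 in MI-883 livers. The control range lay within the MI-883 range, and the log2 difference was -0.076 (SE 0.115, exact permutation p = 0.532, adjusted 0.532).

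**Figure D3:**
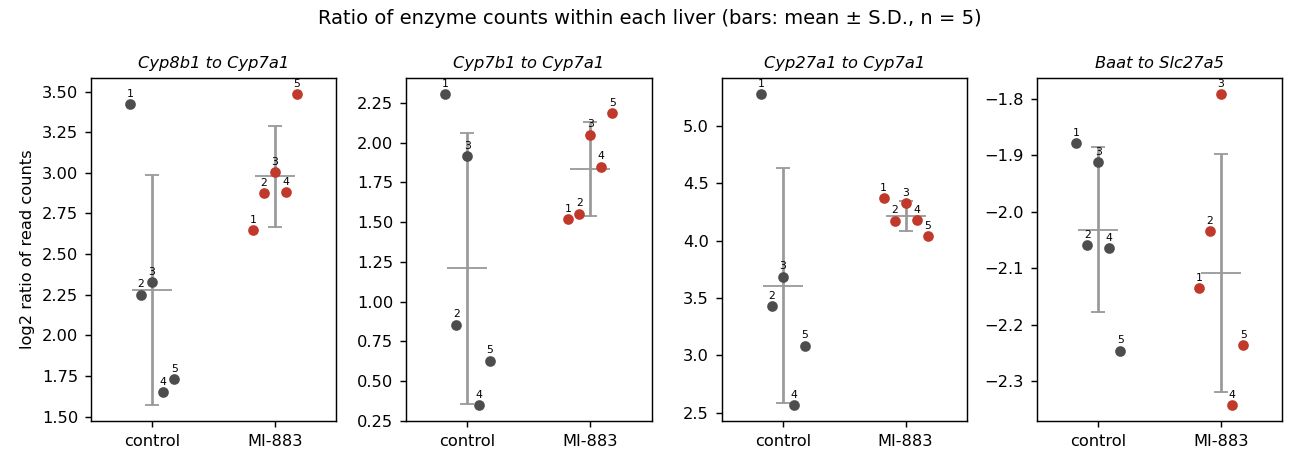
Log2 ratio of read counts of a pair of enzyme genes in each of 5 control (grey) and 5 MI-883 (red) livers, numbered by replicate, with bars for the mean ± SD; the axes do not start at 0. In the 3 ratios to Cyp7a1 all 5 MI-883 livers lie above the control median, while control liver 1 lies among or above them.

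Levels of different enzymes were compared per exon length, as TPM (relative transcript number, computed from the counts and GENCODE exon lengths). By the median over 10 livers the order was Slc27a5 (1169 TPM), Cyp27a1 (886), Hsd3b7 (420), Cyp8b1 (414), Baat (355), Amacr (179), Akr1d1 (174), Cyp7b1 (166), Cyp7a1 (28.7) and Cyp39a1 (16.5 TPM). Ranges over the livers did not overlap between the neighbours Cyp27a1 and Hsd3b7, Baat and Amacr, and Cyp7b1 and Cyp7a1, whereas those of the other neighbours overlapped. Within each liver, Slc27a5 was nonetheless above Cyp27a1 in 10 of 10 livers and Cyp7a1 above Cyp39a1 in 9 of 10, while Hsd3b7 was above Cyp8b1 in 4, Cyp8b1 above Baat in 7, Amacr above Akr1d1 in 6 and Akr1d1 above Cyp7b1 in 7 of 10. The rate-limiting enzyme Cyp7a1 thus had the second-lowest level per length of the 10, at the 77.3 percentile of all tested genes by median TPM, and Slc27a5 was at the 99.1 percentile. Of the summed TPM of the 10 enzymes, the median share of Slc27a5 was 31.9% in control and 28.8% in MI-883 livers, that of Cyp27a1 22.9% and 23.9%, that of Cyp8b1 9.99% and 10.9%, and that of Cyp7a1 1.11% and 0.676%.

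**Figure D4:**
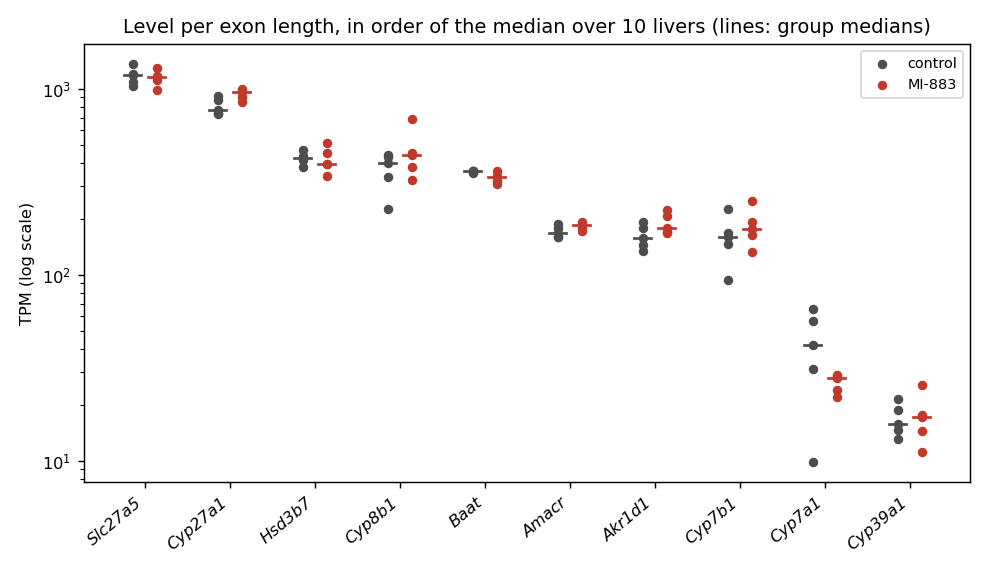
TPM (log axis) of each enzyme gene in 5 control (grey) and 5 MI-883 (red) livers, with lines for the group medians, in order of the median over 10 livers. Slc27a5 and Cyp27a1 are highest (1169 and 886 TPM) and Cyp7a1 and Cyp39a1 lowest (28.7 and 16.5 TPM).

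The pairwise correlations of the enzymes between livers were mostly positive. With the group means removed, 36 of the 45 pairs of members had a Pearson correlation of log2 CPM above 0, 23 above 0.5 and 1 below -0.5, with a median of 0.52. Among all pairs of the 9327 tested genes with a mean of at least 5 CPM, 50.8% were above 0 and 13.9% above 0.5, with a median of 0.01. The highest was between Cyp27a1 and Slc27a5 (0.89), followed by Akr1d1 with Slc27a5 (0.84), and the classical-pathway hydroxylases Cyp7a1 and Cyp8b1 reached 0.81. Cyp8b1 and Cyp7b1 were at 0.77. Hsd3b7 and Cyp39a1 departed from this pattern, and the lowest value was between the 2 of them (-0.86). Within the groups, 31 pairs were above 0 in both, 10 had opposite signs, and the median was 0.62 in the 5 control and 0.44 in the 5 MI-883 livers. Cyp7b1 with Baat, for one, was at 0.85 in control and -0.38 in MI-883 livers, and Cyp8b1 with Baat at 0.78 and -0.30. These correlations are descriptions over 10 livers, which share libraries, scaling and the low values of control liver 1 in 8 of the 10 genes.

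**Figure D5:**
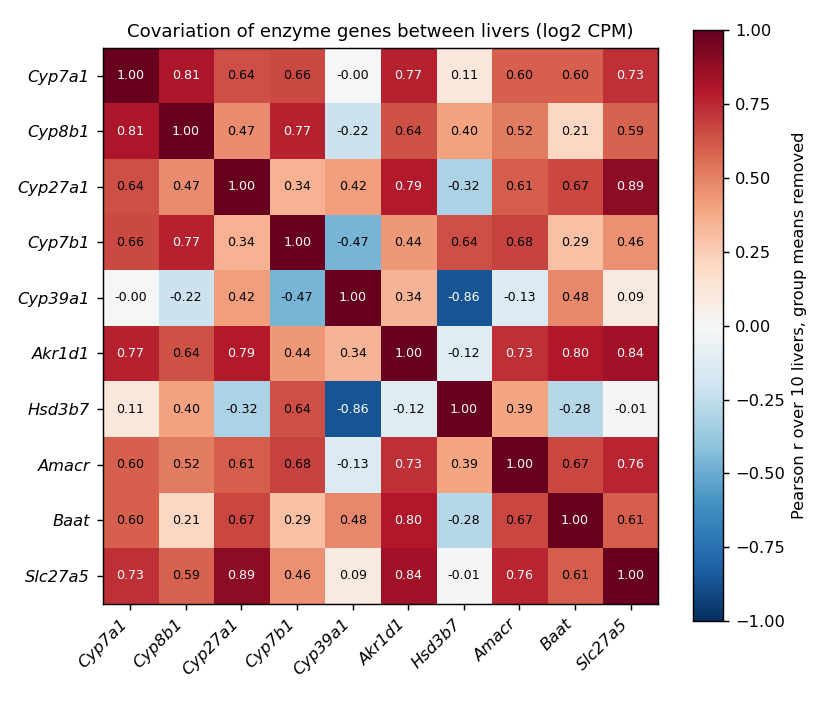
Pearson correlation of log2 CPM between each pair of enzyme genes over 10 livers after removing the group means (colour from -1 to 1). Most cells are positive (36 of 45 pairs), and the rows of Cyp39a1 and Hsd3b7 hold the negative ones.

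Among 9317 tested genes with a mean of at least 5 CPM, those whose log2 CPM was most like that of Cyp7a1 over the 10 livers were Pbld1 (r = 0.92), Cth (0.92), Gnmt (0.91), Rad17 (0.91) and Cebpz (0.90). Cth and Gnmt are enzymes of methionine metabolism. For Cyp8b1 they included Aldh6a1 (r = 0.90), Oat (0.89), Acsl1 (0.89) and Marchf6 (0.87). Aldh6a1 and Oat break down amino acids, and Oat is also a pericentral marker. For Cyp7b1 they were Ankrd33b (r = 0.93), Mup7 (0.93), Wdr59 (0.91), Cbfa2t2 (0.91) and Abat (0.90). Mup7 belongs to a family of near-identical major urinary protein genes, so its counts are uncertain. The 3 lists had no gene in common.

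Other enzymes of bile acid formation were looked at in a list of 14, of which 13 were tested (Ch25h was below the count minimum). None passed in edgeR, while DESeq2 called 3 of 13, all lower in MI-883 livers (Cyp2c70, Sult2a8 and Scp2), beside 3.5% of all tested genes. An unadjusted edgeR p under 0.05 was met by 5 of 13, beside 15.6% of all tested genes. These were the same 3 genes and Cyp46a1 (-0.28), all lower, and Abcd3 (0.24), higher. The groups were without overlap in 2 of 13, beside 3.98% of all tested genes. Of the 13 estimates, 6 were above and 7 below 0, with a median log2 fold change of -0.029. Cyp2c70, which makes the muricholic acids of mice, was at 264.4, 332.4, 329.5, 306.0 and 435.5 CPM in control livers and at 263.2, 226.7, 215.9, 256.5 and 151.4 CPM in MI-883 livers. The groups did not overlap, with the highest MI-883 liver just under the lowest control liver. Its log2 fold change was -0.58 (SE 0.154, edgeR adjusted p = 0.103, DESeq2 adjusted p = 0.0122).

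Scp2, the sterol carrier protein and peroxisomal thiolase, was at 4900–5279 CPM in the controls and 4371–4662 CPM after MI-883. The groups did not overlap here either, though the log2 fold change was small (-0.18, SE 0.0793, edgeR adjusted p = 0.291, DESeq2 adjusted p = 0.00490). Sult2a8, a bile acid sulfotransferase named after its values were seen, had a log2 fold change of -0.47 (edgeR adjusted p = 0.151, DESeq2 adjusted p = 0.0373). It passed in edgeR without control liver 1 (adjusted p = 0.0326). Control liver 1 was at 586 CPM and the other control livers at 852–1008 CPM, against 472–696 CPM in MI-883 livers. That removal thus left no overlap, and the call is not independent support. Acox2, the oxidase of the branched side chain, was at 177–214 CPM in the controls and 195–242 CPM after MI-883 (log2 fold change 0.14, edgeR adjusted p = 0.385).

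Of 22 regulators of bile acid synthesis, 0 passed in edgeR or DESeq2, and 7 estimates were above and 15 below 0 (median log2 fold change -0.059). An unadjusted edgeR p under 0.05 was met by 5 of 22, beside 15.6% of all tested genes. By log2 fold change these were Insig2 (0.29), higher, and Fgfr4 (-0.28), Klb (-0.39), Nr1h3 (-0.19) and Foxa2 (-0.38), all lower. The 22 include the mouse genes of PXR and CAR, which human genes replace in these mice, so the counts of both are of uncertain meaning. The estimates for the bile acid receptor FXR and the activators of Cyp8b1 were near 0, with log2 fold changes of 0.035 for Nr1h4 (edgeR adjusted p = 0.883), 0.030 for Nr5a2 (0.880) and -0.0030 for Hnf4a (0.993). Nr0b2, the repressor SHP, was at 47.4–85.6 CPM in the controls and 43.3–68.6 CPM after MI-883 (log2 fold change -0.24, adjusted p = 0.543).

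The receptor pair for Fgf15 had lower estimates in MI-883 livers without passing. Fgfr4 was at 24.9–35.6 CPM in the controls and 22.2–29.2 CPM after MI-883 (log2 fold change -0.28, SE 0.106, edgeR adjusted p = 0.230). Klb was at 15.9, 18.1, 25.0, 17.4 and 31.2 CPM in control livers and at 15.7, 18.3, 16.0, 15.8 and 15.8 CPM in MI-883 livers. The MI-883 values of Klb were close to each other, and control livers 3 and 5 stood above them (log2 fold change -0.39, SE 0.161, edgeR adjusted p = 0.267). Unlike in Cyp7a1, the other control livers (1, 2 and 4) lay within the MI-883 range.

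Because Cyp7a1 follows the daily cycle, clock genes were read in the same livers. Of 17 tested, 0 passed in edgeR or DESeq2, and the median log2 fold change was -0.11. An unadjusted edgeR p under 0.05 was met by 2 of 17, beside 15.6% of all tested genes. Dbp was at 112–151 CPM in the controls and 89.6–121 CPM after MI-883 (log2 fold change -0.31, edgeR adjusted p = 0.167), and Nr1d1 at 50.8–76.3 and 41.2–60.6 CPM (-0.26, adjusted p = 0.377). Control liver 1 was within the range of the other control livers in both (135.3 and 71.5 CPM), but the lowest in Per1 (20.1 CPM against 35.8–59.7 CPM). The time of day at which each liver was taken is not given in the sources used here, and its part in the spread of Cyp7a1 was not tested.

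Cell type markers were read in the same livers as well. Hepatocyte markers (Alb, Ttr and others) were abundant, as the tissue label says, and 0 of 6 passed, all with negative estimates and a median log2 fold change of -0.21. Summed cholangiocyte markers were at 25.0–117 CPM in the controls and 35.1–190 CPM after MI-883, with 0 of 5 passing, 5 positive estimates and Cftr below the count minimum. Most of this sum was Spp1 (20.3–108 CPM and 29.3–180 CPM), while Krt7, Krt19, Epcam and Sox9 each lay between 0.351 and 5.37 CPM in every liver. No Kupffer, stellate, endothelial or pericentral marker passed in edgeR, while DESeq2 called 1 of 7 pericentral markers, Glul. It was at 1021–1163 CPM in the controls and 1213–1506 CPM after MI-883, without overlap (log2 fold change 0.27, DESeq2 adjusted p = 0.0128). Such a separation, which 3.98% of all tested genes showed, was also seen in the hepatocyte marker Ttr and the periportal marker Hal. Ttr was at 6033–7421 CPM in the controls and 4685–5864 CPM after MI-883 (log2 fold change -0.25). Of the pericentral estimates, 4 were positive and 3 negative. Of 7 periportal markers, 1 passed in edgeR, lower in MI-883 livers: Hal, the histidine ammonia-lyase, at 168–223 CPM in the controls and 131–163 CPM after MI-883. Its log2 fold change was -0.46 (SE 0.0894, edgeR adjusted p = 0.0264), a call that was lost in 7 of 10 fits leaving out a liver. Of the periportal estimates, 5 were negative and 2 positive (median log2 fold change -0.27). At an unadjusted edgeR p under 0.05 there were 4 of 7 periportal, 3 of 6 endothelial and 2 of 7 pericentral markers. There were also 2 of 6 stellate, 2 of 6 hepatocyte, 1 of 5 cholangiocyte and 0 of 6 Kupffer cell markers. Of all tested genes, 15.6% met this limit. The 4 periportal markers were Hal, Sds (-0.41) and Gls2 (-0.38), all lower, and Cdh1 (0.93), higher. The part of these differences in the enzyme values was not tested.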

How the data were processed

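Liver RNA of 5 control and 5 MI-883-treated mice was sequenced from directional libraries. The authors trimmed reads with fastp 0.23.0 (per the labels), aligned them to mm10 with STAR, counted genes with featureCounts and deposited whole-number counts per Entrez gene without normalization. Of 16647 genes, 16644 were matched to RefSeq symbols and positions (GRCm38.p6). The members and lists were chosen with earlier results of these data known.

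Genes whose counts over all livers came to 60 or more entered the test with edgeR 4.0.16 in R 4.3.3 (TMM, quasi-likelihood, condition alone, Benjamini-Hochberg, threshold 0.05), after the script was tested on simulated data. The SE is the log2 fold change divided by the square root of F. Single values and ratios (counts plus 0.5) were compared by exact two-sided permutation tests. Named were all members, every list gene that passed, 11 list genes chosen by name (Nr1h4, Nr0b2, Fgfr4, Klb, Nr5a2, Hnf4a, Nr1d1, Dbp, Cyp2c70, Acox2 and Scp2), Cyp2b10 as treatment check, and the 5 genes most like Cyp7a1, Cyp8b1 and Cyp7b1, of which 1 is not reported here. Genes that describe control liver 1, and Sult2a8, Abcd3, Cyp46a1, Insig2, Nr1h3, Foxa2, Glul, Sds, Gls2 and Cdh1, were named after their values were seen. TPM used exon-union lengths from GENCODE M21. Each library is labelled as a sample of its own, so p-values measure the spread between these livers.

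Alternatives were DESeq2 1.42.0, total counts, other filters, a replicate block, 1 surrogate variable (sva 3.50.0), leaving out each liver, another pseudocount and another length. DESeq2 and total counts without control liver 1 were added after seeing the data. Same-numbered livers correlated at -0.12 to 0.36 in their deviations from group means, so the numbers were not taken as pairs.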

Additional observations from a re-analysis of the deposited data

Results flagged for a closer look

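In 28 groups of 5 livers (the 10 enzyme genes and the 4 ratios, in both conditions), 0 had a highest or lowest liver with a gap to its neighbour above 0.71 of the group's range, where chance would flag about 1.4; the low Cyp7a1 value of control liver 1 is among those that did not pass.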

How the results depend on the processing

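The estimates of Cyp8b1, Cyp27a1, Akr1d1, Hsd3b7, Baat and Slc27a5 kept their sign and missed the threshold under all alternatives run, and the log2 fold change of Cyp7a1 stayed negative (-0.98 to -0.38, adjusted p 0.0330 to 0.657 over the planned ones). The number of genes called, 136 with all livers, was 463 with DESeq2, 254 with 1 surrogate variable, 62 to 208 when a liver was left out, and 645 with DESeq2 and 228 with total counts when control liver 1 was left out, both added after seeing the data. Members called were 0 to 1 when a liver was left out, and 1 in both added fits, Cyp7a1 each time. Of the other bile acid enzymes, 3 were called by DESeq2, 0 to 1 when a liver was left out, 3 by DESeq2 without control liver 1 and 1 with total counts without it. Signs turned for Cyp7b1 (-0.031 to 0.29 when a liver was left out; -0.035 by DESeq2 without control liver 1), Cyp39a1 (-0.24 to 0.12 when a liver was left out; 0.010 with total counts, 0.050 without control liver 1 as well) and Amacr (-0.019 to 0.088 when a liver was left out; -0.022 by DESeq2 without control liver 1). The log2 ratio difference ran from 0.55 to 0.99 for Cyp8b1 to Cyp7a1 and from 0.35 to 1.03 for Cyp27a1 to Cyp7a1 when a liver was left out, with an unadjusted p under 0.05 in both only without control liver 1. With the longest transcript as length, 2 members (Amacr and Akr1d1) changed places. Where no cause is given, the cause was not tested.

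With the replicate number as a block, 89 genes were called and 0 members, and the log2 fold change of Cyp7a1 was -0.50 (edgeR adjusted p = 0.467). Of 5 same-numbered pairs, 1 correlated above 0.1, and 1 of 10 livers correlated best with its own number. No pairing by number was thus seen, though a weak one could be missed with 5 pairs. Each member had at least 359 counts in every liver, and the SEs ran from 0.0770 to 0.373, the highest being that of Cyp7a1, which was 0.201 without control liver 1.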
